A study of Homo sapiens with 12 samples.

Results

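A set of 9 genes of cell-cell contact, among the 24528 genes in the count table, were followed across Musashi knockdowns in MIA PaCa-2, a cell line established from a carcinoma of the human pancreas. They are the cadherins CDH1 (gene ID 999), CDH2 (1000) and CDH5 (1003), the claudins CLDN1 (9076), CLDN4 (1364) and CLDN12 (9069), occludin OCLN (100506658), the scaffold TJP1 (7082) and the adhesion receptor F11R (50848). They were matched by symbol. CDH5 and CLDN1 were picked because their transcripts were higher in the Msi1 knockdown than in control, so every value of these 2 genes that uses libraries of either group is given as a description with no test. Their comparison of the double with the Msi2 knockdown contrasts neither group, though its spread and scaling come from a fit to all 12 libraries.

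The study compared 4 groups of 3 libraries each. All cells received lentivirus: a scrambled shRNA in the control, an shRNA against MSI1 (Musashi-1, virus carrying a GFP tag), an shRNA against MSI2 (Musashi-2, virus carrying a Tomato Red tag), or both in the double knockdown. Cells were infected for 72 hours and then sorted for GFP, Tomato Red or both, so hairpin, fluorescent protein and gate cannot be told apart between groups; the tag of the control virus is not given in the sources used here. The labels name no number of hairpins or clones and do not say that replicates came from separate cultures. The p-values therefore reflect the spread between these libraries alone, and that spread may be technical.

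Cadherins are calcium-dependent adhesion proteins that bind the same cadherin on a neighbouring cell and hold the actin cytoskeleton through catenins. CDH1 (E-cadherin) is the cadherin of epithelia, CDH2 (N-cadherin) of neural and mesenchymal cells and CDH5 (VE-cadherin) of endothelium. In tight junctions, claudins form the strands that close the space between epithelial cells, occludin lies in the same strands, F11R (JAM-A) is an immunoglobulin-like adhesion receptor, and TJP1 (ZO-1) is the cytoplasmic scaffold that ties them to actin.

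Of the members, 6 had an entry in the RefSeq promoter table (build GRCh38.p14), matched by gene ID; CDH1, CDH5 and F11R had none. The 3 claudins are shown because each has 1 listed start site and their transcripts behaved differently: CLDN1 was highest in the Msi1 knockdown, CLDN4 in the Msi2 knockdown, and CLDN12 was lowest in the double knockdown. The sequences are the 250 bases before the start, 5′ to 3′ on the gene's strand, at chr3:190322447-190322696 (minus strand) for CLDN1, chr7:73830746-73830995 (plus) for CLDN4 and chr7:90403211-90403460 (plus) for CLDN12. Capitals mark matches on either strand to the GC box GGGCGG, the AP-1 motif TGANTCA and the E-box CAGGTG that SNAI and ZEB repressors bind; no marked motifs overlap.
CLDN1: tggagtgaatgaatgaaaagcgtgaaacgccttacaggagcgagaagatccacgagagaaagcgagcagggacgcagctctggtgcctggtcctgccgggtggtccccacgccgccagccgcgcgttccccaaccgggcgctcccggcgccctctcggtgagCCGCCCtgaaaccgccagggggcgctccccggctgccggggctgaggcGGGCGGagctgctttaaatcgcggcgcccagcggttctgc
CLDN4: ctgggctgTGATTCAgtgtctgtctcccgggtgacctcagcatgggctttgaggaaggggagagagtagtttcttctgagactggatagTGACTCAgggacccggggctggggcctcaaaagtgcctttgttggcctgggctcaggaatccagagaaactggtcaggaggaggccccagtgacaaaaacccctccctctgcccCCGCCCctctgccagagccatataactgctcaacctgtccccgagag
CLDN12: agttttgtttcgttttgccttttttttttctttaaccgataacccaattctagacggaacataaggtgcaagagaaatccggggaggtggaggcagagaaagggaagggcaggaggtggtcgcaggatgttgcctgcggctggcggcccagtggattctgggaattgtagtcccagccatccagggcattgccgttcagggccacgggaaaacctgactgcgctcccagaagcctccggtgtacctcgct
CLDN1 held 2 GC boxes, beginning 88 and 40 bases before the start. CLDN4 held 2 AP-1 matches, 242 and 161 bases before the start, and 1 GC box at 47. CLDN12 held none of the motifs. Of all 35116 promoter windows of this length, 42.6% held a GC box, 6.57% an AP-1 match and 17.5% the E-box. These matches are letters in a window, not measured binding.

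The targeted transcripts were lower where their shRNAs were given. MSI1 stood at 4.93, 4.53 and 4.13 CPM (counts per 1e6 of the scaled library total) in control libraries, 1.62, 1.94 and 1.96 in the Msi1 knockdown, 7.001, 5.37 and 6.04 in the Msi2 knockdown and 2.01, 1.45 and 1.66 in the double knockdown. MSI2 stood at 81.2, 80.7 and 86.3 CPM in control, 52.1, 56.5 and 53.4 in the Msi1 knockdown, 15.1, 17.3 and 12.6 in the Msi2 knockdown and 11.1, 12.2 and 12.02 in the double knockdown, so MSI2 was also below every control library in the Msi1 knockdown. Library totals ran from 10948191 to 35043671 counts in control and from 26759360 to 56122207 in the knockdowns. The libraries also differed along a trend present within groups, the first component of deviations from the group means; scores ran from -1.54 to -1.06 in the double knockdown and from -0.39 to 1.38 in the other libraries, so this trend and the double knockdown are hard to tell apart. The epithelial label was only partly met: KRT8 and KRT18, keratins of simple epithelia, stood at 1187 ± 31 and 1179 ± 64 CPM in control (SD, n = 3), whereas EPCAM had 1 to 13 counts per library and GRHL2 0 to 7, and the mesenchymal filament gene VIM stood at 5868 ± 21 CPM.

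Per length of transcript, the claudins led, CDH5 was low in control cells, and CDH1 and CDH2 were nearly silent. In control cells CLDN4 stood at 32.5 ± 0.9 CPM per kb of its longest transcript (SD, n = 3), CLDN1 at 23.6 ± 2.2, CLDN12 at 14.2 ± 1.0, OCLN at 13.6 ± 0.8, TJP1 at 10.3 ± 0.3, F11R at 6.53 ± 0.41, CDH5 at 1.56 ± 0.11 and CDH1 at 0.13 ± 0.04 CPM per kb. Among these neighbours only CLDN12 and OCLN overlapped within their SD. CLDN1 stood above CLDN4 in 2 groups: at 65.04 ± 6.4 against 37.1 ± 3.7 CPM per kb in the Msi1 knockdown, on which it was picked, and at 45.4 ± 1.4 against 39.1 ± 2.3 CPM per kb in the double knockdown. In the Msi1 knockdown CDH5 at 7.39 ± 0.94 stood above F11R at 5.54 ± 0.33. CLDN11, a claudin outside the group, stood highest of the listed claudins in control at 180 CPM per kb.

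**Figure D1:**
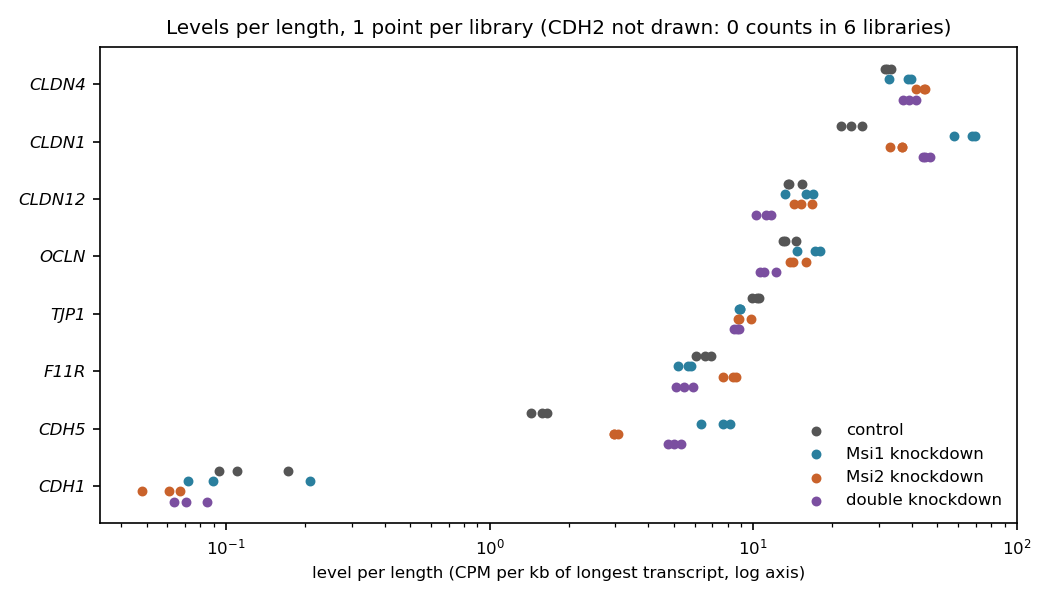
Level per length of 8 genes (CPM per kb of the longest transcript, log axis), 1 point per library, coloured by group; CDH2 is not drawn because 6 libraries had 0 counts. CLDN1 lies below CLDN4 in control and Msi2 knockdown libraries and above it in Msi1 and double knockdown libraries, and CDH1 is the lowest of the 8 in every library.

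The low-count filter was passed by 8 members, which were tested; CDH2 did not pass. Log2 changes are given ± standard error with edgeR's quasi-likelihood p adjusted over all 15021 tested genes, and called means an adjusted p below 0.05. In the Msi1 knockdown against control, 2 of the 6 members not picked on it were higher (CLDN4, OCLN), 2 lower (TJP1, F11R) and 2 not called (CDH1, CLDN12), where 18.5% of all tested genes were called higher and 20.9% lower (39.3% in either direction). In the Msi2 knockdown, 2 of the same 6 were higher (CLDN4, F11R), 2 lower (CDH1, TJP1) and 2 not called (CLDN12, OCLN), against 16.7% higher and 13.6% lower over all genes (30.3% in either direction). In the double knockdown, 1 of the 6 was higher (CLDN4), 4 lower (CLDN12, OCLN, TJP1, F11R) and 1 not called (CDH1), against 26.6% and 25.3% (51.9% in either direction). The median log2 change of these 6 members was 0.014 in the Msi1, 0.10 in the Msi2 and -0.27 in the double knockdown. That of all tested genes lay at -0.0018, -0.0021 and -0.015. The median absolute log2 change was 0.19, 0.25 and 0.27 for the 6 members and 0.23, 0.18 and 0.28 for all tested genes. These comparisons share the control libraries. Counted by libraries that did not overlap with control, 1 of the 6 lay above and 2 below in the Msi1 knockdown (22.7% and 24.4% of all tested genes, 47.2% on either side), 2 above and 2 below in the Msi2 knockdown (20.8% and 17.9%, 38.7%), and 1 above and 5 below in the double knockdown (30.8% and 28.9%, 59.6%). By the same count 0 of 6 lay above and 3 below in the double against the Msi1 knockdown (33.9% and 29.7%, 63.6%), 2 of 8 above and 3 below in the double against the Msi2 knockdown (27.8% and 27.7%, 55.5%), and 2 of 6 above and 1 below in the Msi2 against the Msi1 knockdown (25.5% and 22.1%, 47.6%).

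**Figure D2:**
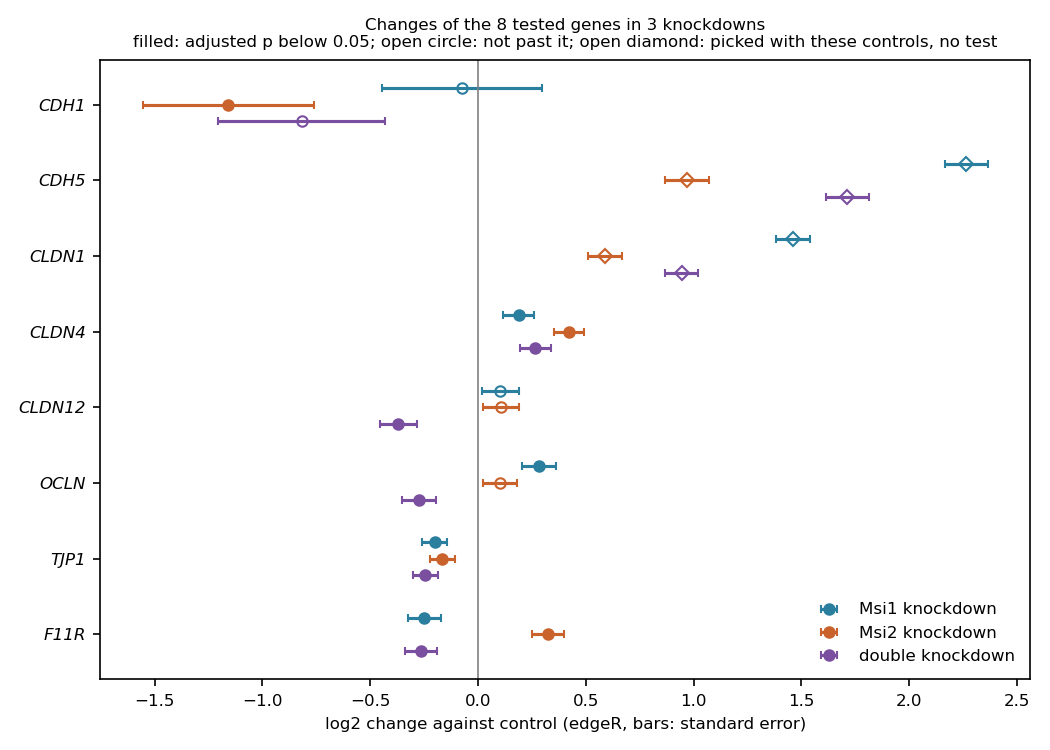
Log2 change against control (x axis, edgeR, bars are standard errors) of the 8 tested genes in the Msi1, Msi2 and double knockdown; filled circles passed the adjusted threshold, open circles did not, and open diamonds are values of CDH5 and CLDN1, which were picked with these controls and have no test here. CDH5 and CLDN1 lie to the right in all 3 knockdowns, CLDN12 and OCLN lie left of 0 only in the double knockdown, and F11R lies right of 0 only in the Msi2 knockdown.

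CDH5, the adhesion protein of endothelial junctions, had higher levels in each knockdown than in control. It stood at 5.94, 6.50 and 6.83 CPM in control libraries, 26.1, 31.7 and 33.6 in the Msi1 knockdown, 12.2, 12.7 and 12.2 in the Msi2 knockdown and 22.003, 20.6 and 19.6 in the double knockdown. Its groups did not overlap, and their order was control, Msi2, double and Msi1 knockdown. The value it was picked on was a log2 difference of 2.26 ± 0.10, or 4.81-fold. Against the same controls, which were part of the choice, the log2 difference was 0.97 ± 0.10 in the Msi2 and 1.71 ± 0.10 in the double knockdown. The comparison that contrasts none of the libraries behind the choice is the double against the Msi2 knockdown, where the Msi1 shRNA was added. There CDH5 was higher by 0.74 ± 0.08 (edgeR adjusted p = 2.6e-06), 1.67-fold. The spread came from the fit to all 12 libraries, and the call also held with only those groups in the model. In this comparison 2 of 8 members were higher and 3 lower, and of all tested genes 22.7% were higher and 22.5% lower (45.2% in either direction). From the Msi1 to the double knockdown CDH5 went from 30.5 ± 3.9 to 20.7 ± 1.2 CPM, a log2 difference of -0.55 ± 0.08 (-0.27 with the trend as a covariate).

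Some other endothelial genes were higher in each knockdown as CDH5 was, and others were not. Of 17 listed endothelial markers, 11 were tested. In the Msi1 knockdown 3 were higher and 2 lower, against 18.5% and 20.9% of all tested genes (39.3% in either direction). In the Msi2 knockdown 4 were higher and 0 lower, against 16.7% and 13.6% (30.3%). In the double knockdown 4 were higher and 2 lower, against 26.6% and 25.3% (51.9%). The guidance receptor ROBO4 rose from 9.93 ± 1.11 to 19.3 ± 1.2 CPM in the Msi1 knockdown, by 0.94 ± 0.09 on the log2 scale (edgeR adjusted p = 6.6e-08), and the TGF-beta co-receptor ENG and the secreted protein EGFL7 rose by 0.66 ± 0.08 and 0.45 ± 0.07. ROBO4 also rose by 0.37 ± 0.09 in the Msi2 and 0.53 ± 0.09 in the double knockdown. ENG rose there by 0.39 ± 0.08 and 0.38 ± 0.08, and EGFL7 by 0.35 ± 0.07 and 0.43 ± 0.07. Mean ROBO4 and EGFL7 followed the group order of CDH5. EGFL7 differed little between the Msi2, double and Msi1 knockdown, at 46.2 ± 2.2, 48.6 ± 3.0 and 49.3 ± 3.4 CPM. The sialomucin EMCN fell by 0.24 ± 0.07 in the Msi1 and 0.55 ± 0.07 in the double knockdown. MMRN2 fell by 0.32 ± 0.11 in the Msi1 and rose by 0.29 ± 0.10 in the Msi2 knockdown. In the double knockdown PECAM1 fell by 0.69 ± 0.26 to 0.55 CPM (edgeR adjusted p = 0.0298), and SOX18 rose by 1.07 ± 0.21 to 3.71 CPM. MMRN2, PECAM1 and SOX18 were named after their values were seen. The defining genes were near 0: mean levels in control were 0.89 CPM for PECAM1, 0.16 for KDR, 0.07 for TEK, 0.35 for TIE1 and 0.25 for VWF, and in the Msi1 knockdown 0.77, 0.17, 0.0084, 0.29 and 0.18 CPM. In bulk samples, fewer cells of a type and less RNA per cell cannot be told apart. SOX17 and ERG had at most 1 count in any library. The summed level of the 17 markers, nearly all of it ENG, EGFL7, EMCN and ROBO4, ran from 144 to 162 CPM in control, 194 to 218 in the Msi1, 179 to 192 in the Msi2 and 177 to 190 in the double knockdown.

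CDH1 and CDH2 were barely expressed. CDH1 had 6 to 37 counts per library: 0.84, 0.46 and 0.54 CPM in control, 1.01, 0.35 and 0.44 in the Msi1 knockdown, 0.33, 0.30 and 0.23 in the Msi2 knockdown and 0.41, 0.35 and 0.31 in the double knockdown. Every Msi2 and double knockdown library lay below every control library, and the Msi1 knockdown spanned the controls. The Msi2 knockdown value was -1.16 ± 0.40 on the log2 scale (edgeR adjusted p = 0.0331). It did not pass once control replicate 1 was left out (-0.77, adjusted p = 0.311), nor without Msi2 knockdown replicate 1 (0.0568) or 3 (0.0892). Against the Msi1 knockdown the Msi2 knockdown read -1.08 ± 0.38 (edgeR adjusted p = 0.0274), which was lost without Msi1 knockdown replicate 1 (-0.44, 0.386), without Msi2 knockdown replicate 3 (-0.95, 0.0851) and with only those groups in the model (-1.10, 0.0548). In the double knockdown the log2 difference was -0.82 ± 0.39 (adjusted p = 0.0837); it passed with only those groups in the model (-0.82, 0.0326) and with the trend as a covariate (-1.66, 0.00444). CDH2 had 10 counts over all 12 libraries, 4 of them in Msi1 knockdown replicate 1, and 0 in 6 libraries. A count of 0 allows up to 3 counts, or 0.274 CPM in the shallowest library; this floor covers counting error only. No switch between CDH1 and CDH2 could be measured at these levels.

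**Figure D3:**
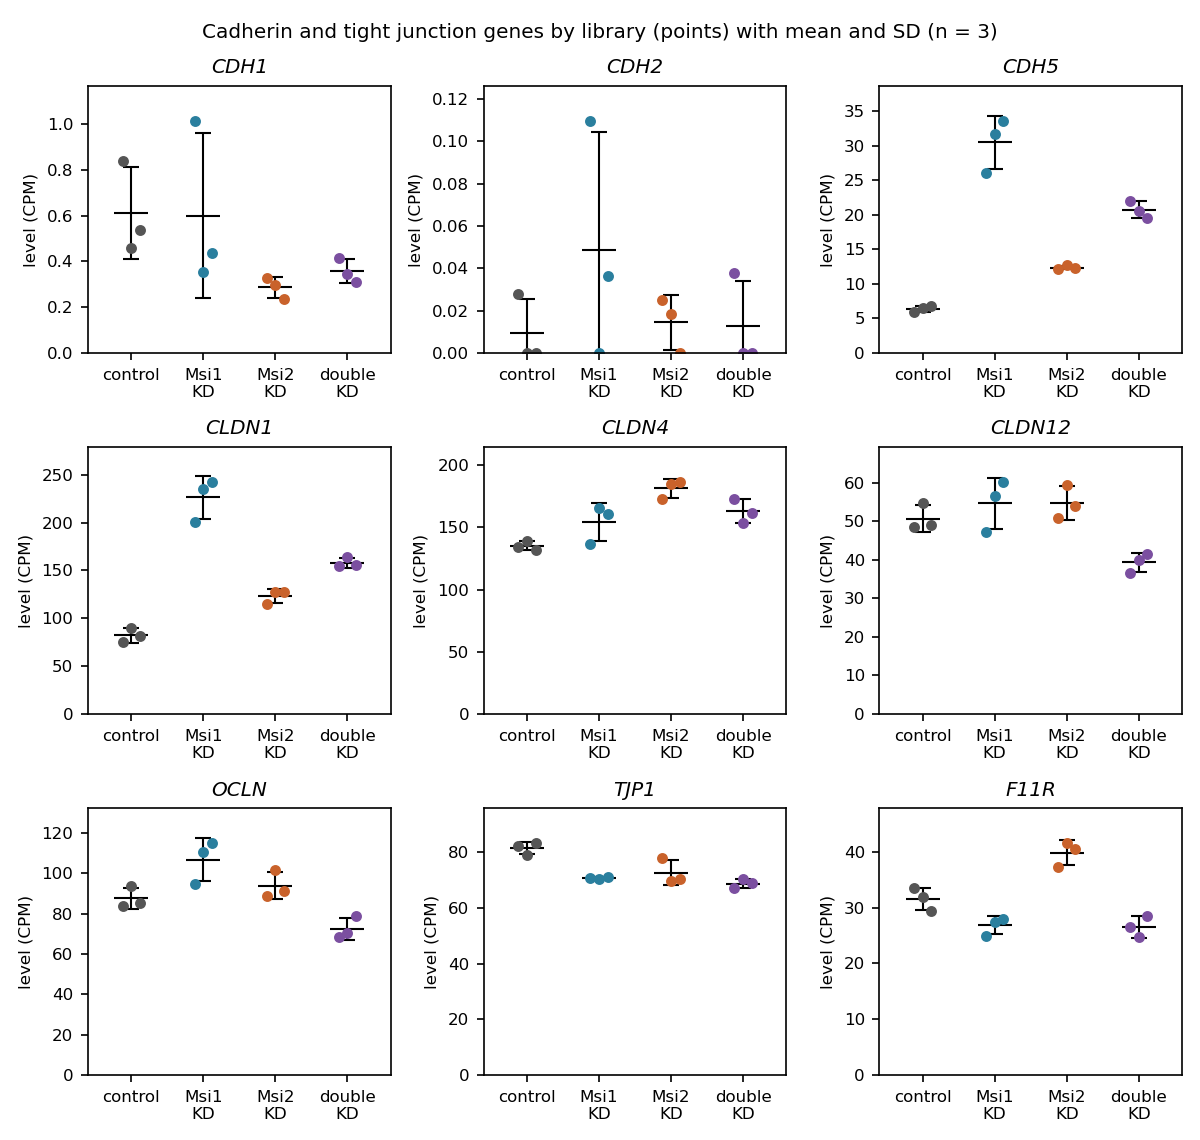
Level (CPM, linear axis from 0, a separate scale for each gene) of the 9 genes in each library (points), with the mean and SD of 3 libraries per group. CDH5 and CLDN1 are separated between all 4 groups in the order control, Msi2, double and Msi1 knockdown, while CDH1 and CDH2 stay at or below 1.01 CPM in every library.

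CLDN1, a barrier-forming claudin of epithelia, followed the same order as CDH5 at a higher level. Its libraries read 74.8, 89.9 and 81.7 CPM in control, 201, 235 and 243 in the Msi1 knockdown, 115, 128 and 128 in the Msi2 knockdown and 154, 164 and 156 in the double knockdown, with no overlap between groups. The value it was picked on was a log2 difference of 1.46 ± 0.08, or 2.76-fold. Against the same controls the log2 difference was 0.59 ± 0.08 in the Msi2 and 0.94 ± 0.08 in the double knockdown (1.11 with the trend as a covariate). In the double against the Msi2 knockdown, which contrasts no library behind the choice, it rose by 0.35 ± 0.08 (edgeR adjusted p = 9.7e-04), 1.28-fold. This call also held with only those groups in the model. From the Msi1 to the double knockdown it differed by -0.52 ± 0.08 (-0.24 with the trend as a covariate).

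CLDN4, a claudin that limits sodium passage, was the most abundant member per length in control cells and peaked in the Msi2 knockdown. It stood at 135, 139 and 132 CPM in control, 136.8, 165.7 and 160.5 in the Msi1 knockdown, 172, 185 and 187 in the Msi2 knockdown and 173, 154 and 162 in the double knockdown. All Msi2 and double knockdown libraries lay above all controls; Msi1 knockdown replicate 1 lay within them. CLDN4 rose by 0.42 ± 0.07 in the Msi2 knockdown (edgeR adjusted p = 1.6e-04) and by 0.27 ± 0.07 with both shRNAs (adjusted p = 0.00413). In the Msi1 knockdown the rise was 0.19 ± 0.07 (edgeR adjusted p = 0.0421). It did not pass when control replicate 1 (adjusted p = 0.102) or 3 (0.105) was left out, nor without Msi1 knockdown replicate 2 (0.1998) or Msi1 knockdown replicate 3 (0.113), with only those groups in the model (0.053) and with the trend as a covariate (0.11, adjusted p = 0.141). The Msi2 knockdown was higher than the Msi1 knockdown by 0.23 ± 0.07 (edgeR adjusted p = 0.0121), which was lost without Msi1 knockdown replicate 1 (0.0586) and with only those groups in the model (0.0585). In that comparison 2 of 6 members were higher and 1 lower, and of all tested genes 22.3% were higher and 18.9% lower (41.1% in either direction).

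CLDN12, a claudin that unlike most lacks the C-terminal motif for scaffold binding, was lower only where both shRNAs were present. It stood at 48.4, 54.8 and 49.0 CPM in control, 47.3, 56.5 and 60.3 in the Msi1 knockdown, 50.8, 59.4 and 54.1 in the Msi2 knockdown and 36.7, 40.0 and 41.5 in the double knockdown. The double knockdown libraries lay below all others. The fall was 0.37 ± 0.09 against control on the log2 scale (edgeR adjusted p = 0.00139), 0.47 ± 0.08 against the Msi1 knockdown (adjusted p = 1.5e-04) and 0.48 ± 0.08 against the Msi2 knockdown (adjusted p = 1.7e-04). The single knockdowns differed from control by 0.10 ± 0.09 (adjusted p = 0.365) and 0.11 ± 0.08 (adjusted p = 0.375); without Msi1 knockdown replicate 1 the former was called, at 0.1975 (adjusted p = 0.0458). In the double against the Msi1 knockdown 0 of 6 members were higher and 2 lower, and of all tested genes 29.9% were higher and 26.2% lower (56.0% in either direction).

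Occludin, the first tight junction membrane protein to be described, went up in 1 single knockdown and down in the double. OCLN stood at 83.7, 93.7 and 85.4 CPM in control, 94.7, 111 and 115 in the Msi1 knockdown, 88.7, 102 and 91.5 in the Msi2 knockdown and 68.4, 70.6 and 78.8 in the double knockdown. It rose by 0.28 ± 0.08 in the Msi1 knockdown (edgeR adjusted p = 0.0076) with no overlap with control, and the Msi2 knockdown value was 0.10 ± 0.08 (adjusted p = 0.373). The double knockdown lay below every other library: OCLN fell by 0.27 ± 0.08 against control (edgeR adjusted p = 0.00738), 0.56 ± 0.08 against the Msi1 knockdown (adjusted p = 1.8e-05) and 0.37 ± 0.08 against the Msi2 knockdown (adjusted p = 7.6e-04). Without double knockdown replicate 1 the fall against control was not called (-0.23, adjusted p = 0.0509). The Msi2 knockdown read -0.18 ± 0.08 against the Msi1 knockdown (edgeR adjusted p = 0.0656), a difference that passed in 7 of 14 alternatives, with DESeq2 (0.0442) and without Msi1 knockdown replicate 1 (0.00548) or Msi2 knockdown replicate 2 (0.0163) among them. OCLN has a near-identical partial copy in the human genome, so the split of its reads is uncertain.

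The double knockdown libraries had the lowest trend scores and the lowest CLDN12 and OCLN. In all groups the library with the highest score also had the highest CLDN12 and OCLN. These were control replicate 2 (score 0.68), Msi1 knockdown replicate 3 (1.38), Msi2 knockdown replicate 2 (1.07) and double knockdown replicate 3 (-1.06). At the low end of the scores the order was mixed. In the Msi1 knockdown replicate 1 had the lowest score, 0.09, and the lowest levels of both genes. In control and the Msi2 knockdown replicate 3 had the lowest score, -0.39 and -0.34, but replicate 1 had the lowest levels of both genes, at scores of -0.19 and 0.25. In the double knockdown replicate 1 was lowest in score and both genes. With the trend as a covariate the double knockdown against control read -0.12 ± 0.07 for CLDN12 (edgeR adjusted p = 0.204) and -0.05 ± 0.07 for OCLN (adjusted p = 0.624). Against the Msi1 knockdown the same fit gave -0.06 (adjusted p = 0.8) and -0.18 (0.265), and against the Msi2 knockdown -0.19 (0.0997) and -0.10 (0.34). The rise of OCLN in the Msi1 knockdown became 0.13 ± 0.06 (adjusted p = 0.0505). In that fit CDH5 and CLDN1 rose from the Msi2 to the double knockdown by 0.95 ± 0.11 and 0.55 ± 0.08. The slope on the trend came from all 12 libraries, those behind the choice included, so both values are a description with no test.

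**Figure D4:**
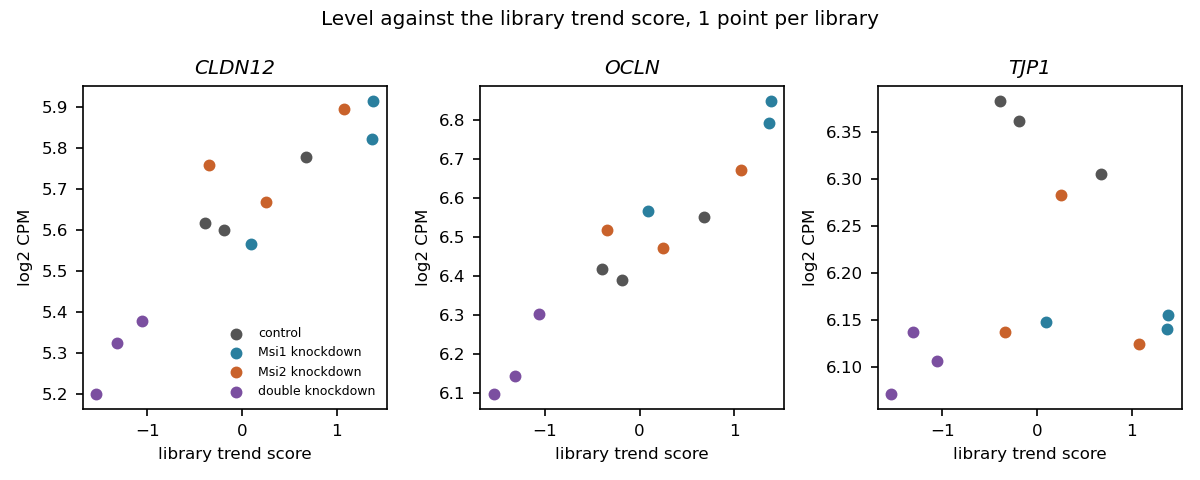
Log2 CPM of CLDN12, OCLN and TJP1 (y axes) against the library trend score (x axis, no unit), 1 point per library, coloured by group. The double knockdown libraries lie at the low end of both axes for CLDN12 and OCLN, and TJP1 is highest in the 3 control libraries at scores from -0.39 to 0.68.

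F11R, which helps set up epithelial polarity, moved in opposite directions in the single knockdowns. It stood at 33.4, 31.9 and 29.5 CPM in control, 24.99, 27.4 and 28.03 in the Msi1 knockdown, 37.3, 41.6 and 40.6 in the Msi2 knockdown and 26.4, 24.7 and 28.5 in the double knockdown. All Msi2 knockdown libraries lay above, and all Msi1 and double knockdown libraries below, the controls. F11R rose by 0.33 ± 0.07 in the Msi2 knockdown (edgeR adjusted p = 0.00212). It fell by 0.25 ± 0.08 in the Msi1 knockdown (adjusted p = 0.0126; 0.0978 without control replicate 1) and by 0.26 ± 0.07 in the double knockdown (adjusted p = 0.00599; -0.17 and 0.103 with the trend as a covariate). The direct difference of the Msi2 from the Msi1 knockdown was 0.57 ± 0.07 (edgeR adjusted p = 3.2e-06), and that of the double from the Msi2 knockdown -0.59 ± 0.07 (adjusted p = 4.6e-06). The double and the Msi1 knockdown differed by -0.01 ± 0.07 (adjusted p = 0.88).

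TJP1 was modestly lower in each knockdown. Its libraries read 82.2, 79.04 and 83.4 CPM in control, 70.9, 70.5 and 71.2 in the Msi1 knockdown, 77.8, 69.7 and 70.4 in the Msi2 knockdown and 67.2, 70.3 and 68.9 in the double knockdown, all below every control library. It fell by 0.20 ± 0.06 in the Msi1 knockdown (edgeR adjusted p = 0.0099; 0.0518 without control replicate 1) and by 0.24 ± 0.06 in the double knockdown (adjusted p = 0.0017). The fall of 0.17 ± 0.06 in the Msi2 knockdown (edgeR adjusted p = 0.0356) did not pass when control replicate 1 (0.0967) or 3 (0.0923) or Msi2 knockdown replicate 2 (0.1096) or 3 (0.114) was left out, nor with thinned libraries (0.0637), no filter (0.089) or only those groups in the model (0.0641). The knockdowns were not called different from each other for TJP1, with log2 differences of -0.08 to 0.03.

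Effects of the shRNAs on these genes did not add up in most cases. The measure of non-additivity takes the log2 change of the double knockdown and subtracts both single-knockdown changes from it; 4 of the 6 members with a test were below 0, none above, while 19.1% of all tested genes were called below and 21.3% above (40.3% in either direction). OCLN stood at -0.66 ± 0.11 (edgeR adjusted p = 2.4e-04), CLDN12 at -0.58 ± 0.12 (0.00118), CLDN4 at -0.34 ± 0.10 (0.0111) and F11R at -0.34 ± 0.10 (0.0141). CDH1 (0.41 ± 0.54, adjusted p = 0.563) and TJP1 (0.12 ± 0.08, 0.235) did not pass. The values of CDH5 and CLDN1, which contain the difference they were picked on, were -1.52 ± 0.13 and -1.11 ± 0.11. With the trend as a covariate no member with a test passed: OCLN read -0.24 (adjusted p = 0.248), CLDN12 -0.13 (0.666), CLDN4 -0.14 (0.625) and F11R -0.16 (0.614), while CDH5 and CLDN1 read -1.22 and -0.81. With libraries thinned to equal depth F11R read -0.30 (adjusted p = 0.0624).

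Other cadherins and claudins were mostly at trace levels. Of 20 further cadherins 12 were tested. Over all tested genes, 18.5% were called higher and 20.9% lower in the Msi1 knockdown. These shares were 16.7% and 13.6% in the Msi2 and 26.6% and 25.3% in the double knockdown. In the Msi1 knockdown CDH10 and CDH24, both type II cadherins, rose from 8.64 ± 0.89 to 13.7 ± 1.1 CPM (log2 0.67 ± 0.11) and from 10.5 ± 1.4 to 15.8 ± 1.6 CPM (0.58 ± 0.11); 0 of the 12 fell. In the Msi2 knockdown 2 rose, CDH15 and CDH23, both under 5 CPM and named after their values were seen, and in the double knockdown CDH12 fell by 0.33 ± 0.11 and none rose. Of 20 further claudins 10 were tested. CLDN11, the claudin of myelin and testis, rose from 391 ± 23 to 479.6 ± 25.2 CPM in the Msi2 knockdown (log2 0.30 ± 0.08, edgeR adjusted p = 0.00587) and fell to 309 ± 8 CPM in the double knockdown (-0.34 ± 0.08, adjusted p = 0.00106), and CLDN15, a pore-forming claudin, fell by 0.56 ± 0.12 and 0.66 ± 0.12. In the Msi1 knockdown the 2 claudins called, CLDN2 and CLDN16, were under 1 CPM; they were named after their values were seen.

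Catenins, nectins and polarity proteins, the partners of these genes, changed in both directions. Both lists below can be read against the shares of all tested genes called against control. For MSI1, MSI2 and both shRNAs, in that order, 18.5%, 16.7% and 26.6% were higher. The shares called lower were 20.9%, 13.6% and 25.3%, and those called in either direction 39.3%, 30.3% and 51.9%. Of 10 tested catenins, nectins and their actin linkers, 4 rose and 3 fell in the Msi1 knockdown, 3 and 2 in the Msi2 knockdown and 1 and 3 in the double knockdown. JUP (plakoglobin) fell from 39.02 ± 6.2 to 20.2 ± 1.9 CPM in the Msi1 knockdown (log2 -0.95 ± 0.10), and PVRL2, the adhesion receptor nectin-2, rose by 0.77 ± 0.08 in the Msi1, 0.86 ± 0.08 in the Msi2 and 0.73 ± 0.08 in the double knockdown. CTNND1 (p120 catenin), which keeps cadherins at the membrane, fell by 0.28 ± 0.06, 0.26 ± 0.06 and 0.24 ± 0.06. Of 20 tested tight junction scaffold, polarity and adhesion genes, 3 rose and 7 fell in the Msi1 knockdown, 3 and 1 in the Msi2 and 2 and 6 in the double knockdown. The polarity genes PARD3, PARD6A and PRKCZ fell by 0.67 ± 0.07, 0.88 ± 0.14 and 0.69 ± 0.08 in the Msi1 knockdown. PRKCZ also fell in the Msi2 and double knockdown, by 0.25 ± 0.08 and 0.40 ± 0.08, and PARD6A in the double knockdown, by 0.35 ± 0.13. Polarity genes that rose included PARD3 in the Msi2 knockdown (0.20 ± 0.06), INADL in the Msi1 and Msi2 knockdown (0.19 ± 0.06 and 0.21 ± 0.06), and PARD6B and PRKCI in the double knockdown (0.28 ± 0.12 and 0.20 ± 0.06). The median log2 change of this list was -0.03, 0.09 and -0.11 in the 3 knockdowns, and that of all tested genes -0.0018, -0.0021 and -0.015.

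Factors of epithelial-mesenchymal transition and epithelial regulators were followed too; the list holds transcription factors and the splicing regulator ESRP1, which fell in the double knockdown (-0.70 ± 0.29, edgeR adjusted p = 0.0462) at a level under 1 CPM. Of 17 listed, 11 were tested. In the Msi1 knockdown 2 rose and 1 fell, against 18.5% and 20.9% of all tested genes (39.3% in either direction). In the Msi2 knockdown 2 rose and 2 fell, against 16.7% and 13.6% (30.3%). In the double knockdown 4 rose and 2 fell, against 26.6% and 25.3% (51.9%). SNAI1, a repressor of CDH1, rose from 3.21 ± 0.26 to 5.87 ± 0.81 CPM in the double knockdown (log2 0.87 ± 0.15, edgeR adjusted p = 8.4e-05). ZEB1, another such repressor, rose from 61.1 ± 2.9 CPM in control by 0.33 ± 0.06 in the Msi2 and 0.36 ± 0.06 in the double knockdown, and TCF3 by 0.44 ± 0.07 and 0.55 ± 0.07. ELF3, an epithelial ETS factor, fell by 1.10 ± 0.12, 0.62 ± 0.12 and 1.01 ± 0.12 on the log2 scale, in the order Msi1, Msi2 and double knockdown. On the same list KLF4 rose by 0.21 ± 0.07 in the Msi1 and 0.46 ± 0.07 in the double knockdown. EHF rose by 0.36 ± 0.07 in the Msi1 and fell by 0.30 ± 0.07 in the Msi2 knockdown.

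By Pearson's r of log2 CPM over the 12 libraries, which share depth, trend and group structure, the genes most like CDH5 among 9762 compared were TNFAIP3 (0.99), B3GNT5 (0.99) and B4GALT5 (0.99). Those most like CLDN1 were RGMB (0.99), GPAT3 (0.99) and again B4GALT5 (0.99). TNFAIP3 had means of 12.5 ± 0.4, 29.3 ± 2.5, 16.9 ± 0.4 and 23.001 ± 1.5 CPM in the control, Msi1, Msi2 and double knockdown groups, the same order as CDH5. For the other members the nearest genes were POMT2 for CLDN4 (0.97), ESYT2 for CLDN12 (0.99), LRIG2 for OCLN (0.98), ZNF480 for TJP1 (0.97), C10orf54 for F11R (0.98) and ACOT8 for CDH1 (0.97). Each r is the highest among all genes compared. CDH1 had 6 to 37 counts per library, so its r also carries counting error.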

How the data were processed

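The authors deposited estimated counts per gene as whole numbers for 12 libraries, not scaled between libraries. The submitters' processing notes list CASAVA 1.4, kallisto 0.42.1 and hg19 with no role or order. The transcript set and the step from transcripts to genes are not given. RNA came from 200 ng of total RNA per library, per the labels. The count test was edgeR's (version 4.0.16, under R 4.3.3): filterByExpr with a minimum count of 10 by group left 15021 genes, libraries were scaled by TMM factors, and all 12 libraries entered 1 robust quasi-likelihood fit with 4 group means, leaving 8 residual degrees of freedom. Tests were two-sided, with Benjamini-Hochberg adjustment over all tested genes. Each standard error is the absolute log2 change over the root of F. An exact permutation of 3 libraries against 3 cannot go below p = 0.1, so tests rest on this fit. Within every group, libraries differed beyond counting noise (chi-square over its degrees of freedom between 3.83 and 36.2). Lengths are of the longest GENCODE 29 transcript. Alternatives were DESeq2 1.42.0, DESeq2 size factors, no filter, a filter of 10 CPM in 3 libraries, only the compared groups, a replicate block, each library left out, libraries thinned to 10948191 counts and the trend as a covariate (scored on genes over 3 in log2 CPM, prior count 2). The fit was tested on simulated counts.

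Members and lists were chosen with earlier results of these data known. Named genes were the members, MSI1 and MSI2, up to 3 genes per list and comparison with control with the largest absolute log2 change among those called and reaching a mean of 5 CPM in the higher group, plus the genes most like each member among those with at least 10 CPM in the highest group; not all are printed. All 150 entries of the 11 lists matched the table, through gene IDs where symbols had changed. Markers of blood cells and fibroblasts were listed as well. Of 4 blood markers 1 was tested and 0 were called in any knockdown. Of 6 fibroblast markers 1 rose and 1 fell in the Msi1, 1 and 1 in the Msi2 and 1 and 3 in the double knockdown. The shares of all tested genes called in either direction were 39.3%, 30.3% and 51.9%.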

Additional observations from a re-analysis of the deposited data

Results flagged for a closer look

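The effect of one shRNA differed with the presence of the other, by the test of non-additivity over all tested genes, for 4 members. The differences were -0.58 for CLDN12, -0.34 for CLDN4, -0.34 for F11R and -0.66 for OCLN on the log2 scale. Each lost its call with the library trend as a covariate, and the part of that trend in the result was not tested.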

How the results depend on the processing

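With the trend as a covariate the genes called went from 8419 to 718 in the double against the Msi1 knockdown, from 6792 to 2697 in the double against the Msi2 knockdown and from 6058 to 592 for non-additivity. The 4545 genes called in the Msi2 knockdown against control ranged from 3013 to 4249 with 1 library left out, the lowest without control replicate 1. Signs changed only for member values not called: with the trend as a covariate CDH1 read 0.37 and CLDN12 -0.058 in the Msi1 knockdown against control, F11R 0.14 in the double against the Msi1 knockdown, and CDH1 -0.64 in the double against the Msi2 knockdown and -1.01 for non-additivity. Between the Msi2 and Msi1 knockdowns CLDN12 read -0.014 with DESeq2, -0.013 with its size factors, -0.013 with only those groups in the model and -0.041 under the stricter filter, where TJP1 read -0.011. With 1 library left out, CDH1 ran from -0.71 to 0.33 in the Msi1 knockdown against control, F11R from -0.085 to 0.018 in the double against the Msi1 knockdown, and between the Msi2 and Msi1 knockdowns CLDN12 from -0.087 to 0.061 and TJP1 from -0.029 to 0.060. Same-numbered libraries deviated together in 10 of 18 pairs (r over 0.1, range -0.54 to 0.70). In 9 of the 18 pairs r was higher than with the differently numbered libraries of the other group. Replicate numbers were not taken as pairs in the main fit. The replicate block changed 1 call, OCLN between the Msi2 and Msi1 knockdowns (-0.18, edgeR adjusted p = 0.0235; 0.0656 without the block), which also passed in 6 other alternatives. CDH1 had 6 to 37 counts, so its changes are known least well; it was not tested under the stricter filter or in thinned libraries.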

Other observations

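Some desmosome genes, which anchor keratin filaments at cell contacts, and some keratins were also called. DSP, the desmosomal plaque protein, fell by 0.30 ± 0.06 in the Msi1 knockdown and rose by 0.29 ± 0.06 in the Msi2 knockdown on the log2 scale (edgeR adjusted p = 4.8e-04 and 6.8e-04). The desmosomal cadherin DSG2 rose by 0.41 ± 0.09 in the Msi2 and fell by 0.30 ± 0.09 in the double knockdown. Of 11 tested desmosome genes, 0 rose and 2 fell in the Msi1, 2 and 3 in the Msi2 and 1 and 5 in the double knockdown. Over all tested genes, 18.5% rose and 20.9% fell in the Msi1 knockdown (39.3% in either direction). These shares were 16.7% and 13.6% in the Msi2 (30.3%) and 26.6% and 25.3% in the double knockdown (51.9%). In the double knockdown KRT8, KRT18 and KRT19 rose by 0.38 ± 0.08, 0.47 ± 0.08 and 0.41 ± 0.08, among 4 of 7 tested epithelial identity genes that rose and 1 that fell. Of those 7, 1 rose in the Msi1 knockdown and 1 fell in the Msi2 knockdown. Of 5 tested mesenchymal identity genes, 0 rose and 1 fell in the Msi1 knockdown, and 1 rose and 1 fell in each of the others.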
